A study of Homo sapiens with 3 samples.

Results

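TNF treatment of LS174T-tetON-NICD cells was measured on 1 two-colour oligonucleotide array, 1 of the 3 arrays of the study, and the array was chosen by its labels alone. LS174T is a human colon carcinoma line with goblet cell features, and the tetON-NICD derivative carries a doxycycline-inducible form of the Notch intracellular domain, the active fragment of the Notch receptor. The treated cells received human recombinant tumour necrosis factor alpha (TNF) at 50 ng/ml for 24 h, and their RNA carried Cy3. The untreated control cells of the same line, with the same construct, carried Cy5. The other arrays held cells given doxycycline (100 ng/ml, 24 h) and cells given both agents (the combined array), each in Cy3 over an untreated control in Cy5. Each condition had 1 culture and 1 array with no dye swap, so no difference has a replicate spread and none has a p-value. Dye and treatment cannot be told apart.

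TNF binds its receptors on the cell surface and frees the transcription factor NF-kB from its cytoplasmic inhibitors, the IkB proteins. In intestinal epithelium NF-kB switches on chemokines that call in neutrophils and lymphocytes, survival genes that keep the TNF receptor from killing the cell, and inhibitors that shut the pathway off again. The line used here makes NICD when doxycycline is added, which the cells given TNF alone did not receive, per the treatment field.

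The array gave 14898 genes with a probe above background in at least 1 channel, where background is the 95th percentile of the blank spots. A ratio is given as log2 of TNF over control after loess normalisation with an offset of 50 added to both channels. The offset pulls the ratio of a dim probe towards 0, so that such a ratio understates what the bare signals show. Loess also shifted the ratios of bright probes. KRT19 had 1038 with TNF and 1934 in the control, and a ratio of -1.45. PSMA7 had 12493 with TNF and 3182 in the control, and a ratio of 1.21. A loss of a bright gene can thus exceed, and a gain fall short of, what its bare signals show. A gene was counted as higher or lower when its ratio was at least 2-fold. Signals are intensity units above the blanks on a linear scale and levels of different genes are not ranked by them. As another measure of TNF, the log2 ratio of the combined array minus that of the doxycycline array gives TNF on top of doxycycline. This second reading shares no array with TNF over control, but it was made in cells with active NICD. The labels do not say whether the controls of the 3 arrays are aliquots of 1 RNA.

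The colon epithelial markers were present in both channels. All 11 measured members of that list were above background with TNF and in the control. EPCAM, an epithelial adhesion molecule, had a signal of 15973 with TNF and 9168 in the control, a log2 ratio of -0.03 after normalisation. KRT18, an epithelial keratin, had 38979 with TNF and 17629 in the control, a log2 ratio of 0.27. Of the 11 genes 5 were at least 2-fold lower with TNF, namely CDX1, CDX2, GPA33, CDH1 and KRT19, whose values stand with the losses. Of 10 leukocyte markers 5 were measured. Summed over these, the signal was 448 with TNF and 459 in the control, but the members went opposite ways. CD68, a lysosomal protein of macrophages, had 381 with TNF and 128 in the control, a log2 ratio of 1.21, and LYZ, which encodes lysozyme, had 27.4 with TNF and 285 in the control, a log2 ratio of -1.90. Their part in the results was not tested. PTPRC, CD3E, MS4A1 and NKG7 were not above background in either channel, and CD3D had 6.56 with TNF and 8.62 in the control. Of 10 fibroblast and endothelial markers 7 were measured, with a summed signal of 306 with TNF and 359 in the control. The collagen genes COL1A1 and COL1A2 were not above background in either channel. The RNA is of whole cultures, so fewer cells of a type and less RNA per cell cannot be told apart in any ratio. OLFM4, a gene strongly switched on by NICD in these arrays, had a signal of 16.4 with TNF and 72.4 in the control, a log2 ratio of -0.66, against 6.73 on the doxycycline array. This bears on the label, since the submitters' protocol text for the treated channel names doxycycline beside TNF while the treatment field names TNF alone.

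The strongest gains with TNF were mostly members of a list of NF-kB target genes. Of the 14898 genes, 18 (0.121%) were at least 4-fold higher. Of the 18 genes, 14 belonged to that list of 64 NF-kB and TNF target genes, of which 60 were measured. The list was chosen with earlier results of these data known, so the overlap describes the gains and is not independent support.

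CCL20, the ligand of CCR6 that attracts dendritic cells and lymphocytes, stood highest of all genes. Its signal was 13811 with TNF and 22.9 in the control. With doxycycline alone CCL20 had 5.10 in treated cells and 6.64 in the control, and with both agents it had 1303 in treated cells and 7.74 in the control. Only the treated channels of cells that had received TNF were high. All 3 controls were dim, that of the TNF array above those of the other arrays. The log2 ratio was 6.99, or 127-fold, and the second reading was at least 3.93.

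CXCL8 encodes interleukin-8, the main neutrophil attractant of human epithelium. Its signal was 3596 with TNF and 24.6 in the control. With doxycycline alone CXCL8 had 9.28 in treated cells and 20.7 in the control, and with both agents it had 93.3 in treated cells and 22.9 in the control. The log2 ratio was 5.22 with TNF over control, but the second reading was 0.93, below 2-fold. Both signals of cells given TNF lay above their controls, and that of cells given TNF alone was by far the higher.

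BIRC3 encodes cIAP2, a ubiquitin ligase that restrains caspases and relays TNF receptor signals. Its signal was 3637 with TNF and 56.2 in the control. With doxycycline alone BIRC3 had 125 in treated cells and 46.6 in the control, and with both agents it had 3467 in treated cells and 46.7 in the control. Both cultures given TNF were alike in level and far above the rest, with log2 ratios of 4.69 and, in the second reading, 4.00.

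TNFAIP3 encodes A20, a ubiquitin-editing enzyme that ends NF-kB signalling. Its signal was 783 with TNF and 21.1 in the control. With doxycycline alone TNFAIP3 had 45.6 in treated cells and 18.7 in the control, and with both agents it had 865 in treated cells and 18.4 in the control. The log2 ratios were 3.48 and, in the second reading, 2.85. NFKBIA encodes IkB alpha, the inhibitor that holds NF-kB in the cytoplasm and is itself an NF-kB target. Its signal was 8201 with TNF and 625 in the control. With doxycycline alone NFKBIA had 1131 in treated cells and 440 in the control, and with both agents it had 5828 in treated cells and 396 in the control. NFKBIA differed from the other markers in its bright control, and it still reached a log2 ratio of 2.95, with 2.47 in the second reading.

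**Figure D1:**
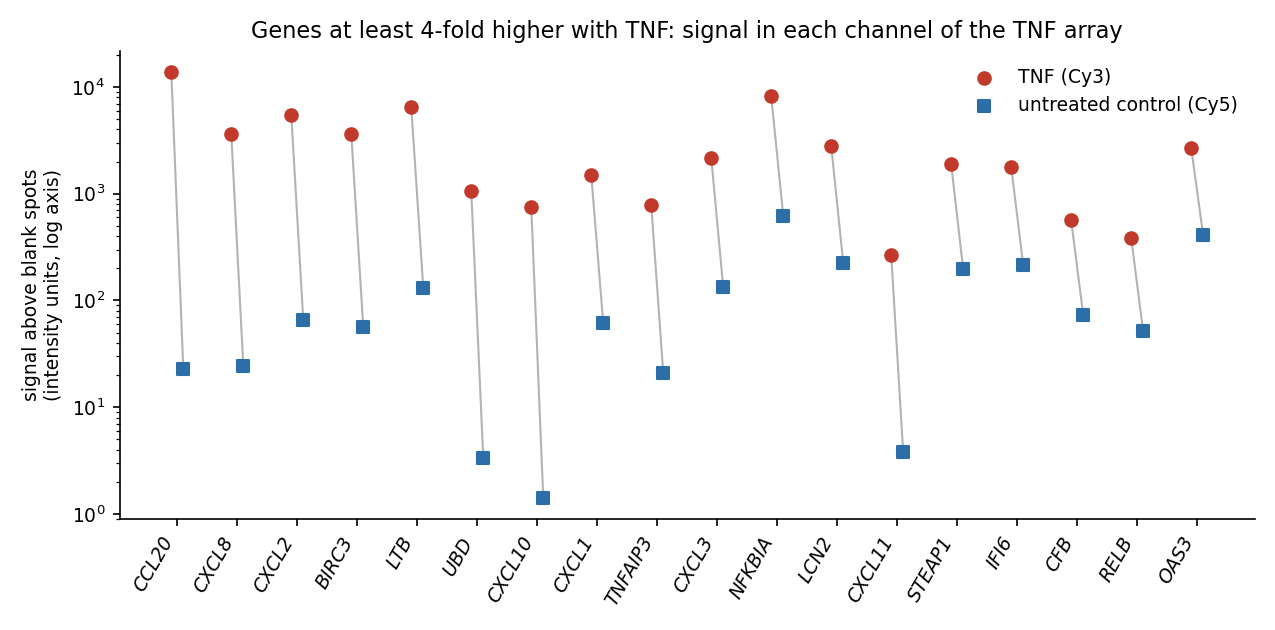
Signal above the blank spots (log axis, intensity units) of the 18 genes at least 4-fold higher with TNF, in order of their log2 ratio; red circles are the TNF channel, blue squares the untreated control channel, each 1 spot signal. CCL20 spans 13811 with TNF and 22.9 in the control, and CXCL10 has a control of 1.42, which is not above background.

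The promoters of these genes were read from RefSeq (GRCh38.p14) because NF-kB binds a short DNA site, and 17 of the 18 genes had an entry. The 250 bases before the start of the 5 marker genes follow, 5′ to 3′, with matches in capitals. The capitals mark the NF-kB consensus, searched on both strands, or the shorter motif GGAATTTCC, which can overlap it.
CCL20, chr2:227813592-227813841, plus strand: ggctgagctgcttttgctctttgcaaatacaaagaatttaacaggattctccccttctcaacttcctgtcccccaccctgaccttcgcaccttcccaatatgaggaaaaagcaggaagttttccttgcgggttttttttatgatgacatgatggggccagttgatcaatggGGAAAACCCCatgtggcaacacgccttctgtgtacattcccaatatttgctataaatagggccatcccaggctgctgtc
CXCL8, chr4:73740319-73740568, plus strand: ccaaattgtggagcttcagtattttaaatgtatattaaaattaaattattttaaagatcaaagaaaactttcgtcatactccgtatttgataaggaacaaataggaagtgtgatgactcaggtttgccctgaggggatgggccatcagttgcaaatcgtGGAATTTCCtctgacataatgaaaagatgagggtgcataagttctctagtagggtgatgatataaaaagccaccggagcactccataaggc
BIRC3, chr11:102317234-102317483, plus strand: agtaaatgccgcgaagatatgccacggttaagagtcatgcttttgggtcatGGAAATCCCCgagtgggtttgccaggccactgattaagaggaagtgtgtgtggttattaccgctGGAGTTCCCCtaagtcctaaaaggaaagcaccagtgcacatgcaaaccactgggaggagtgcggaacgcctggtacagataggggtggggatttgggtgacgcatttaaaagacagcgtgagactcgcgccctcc
TNFAIP3, chr6:137867009-137867258, plus strand: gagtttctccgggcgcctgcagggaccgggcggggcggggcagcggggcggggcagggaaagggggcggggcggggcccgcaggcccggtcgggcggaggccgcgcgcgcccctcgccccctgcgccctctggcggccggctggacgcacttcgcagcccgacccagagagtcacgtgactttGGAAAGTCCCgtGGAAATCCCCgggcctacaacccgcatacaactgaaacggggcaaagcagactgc
NFKBIA, chr14:35404750-35404999, minus strand: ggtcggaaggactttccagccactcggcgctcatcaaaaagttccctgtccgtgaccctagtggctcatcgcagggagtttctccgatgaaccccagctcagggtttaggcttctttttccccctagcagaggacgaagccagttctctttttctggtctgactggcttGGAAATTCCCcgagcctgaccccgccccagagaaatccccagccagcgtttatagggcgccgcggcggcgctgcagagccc
The match nearest to the start lay 79 bases before it in CCL20, 91 in CXCL8, 135 in BIRC3, 55 in TNFAIP3 and 81 in NFKBIA. BIRC3 and TNFAIP3 each held 2 matches, and CXCL8 held only the shorter motif. Over a window of 300 bases around the start, the consensus was in 14 of the 17 promoters (82.4%), against 12.8% of the 11983 measured genes with an entry and 10.8% of all 27305 promoters. The shorter motif was in 8 of the 17 (47.1%), against 0.434% of the measured genes and 0.472% of all promoters. Among genes 2-fold to 4-fold higher the consensus was in 17.1% of 210 promoters and the shorter motif in 4, or 1.90%. Among genes at least 2-fold lower the shares were 13.0% and 0.270% of 1483, and among genes at least 2-fold higher in the second reading they were 22% and 6% of 150. A match is a stretch of letters and was not tested for binding.

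The matches of the other strong gains show how alike some of these promoters are. Each window below holds, in capitals with its flanks, the nearest of the matches that lay before the start.
CXCL1: ggaactccGGGAATTTCCCtggcccgg
CXCL2: ggagctccGGGAATTTCCCtggcccgg
CXCL3: ggagctccGGGAATTTCCCtggcccgg
CXCL10: tgcaacatGGGACTTCCCcaggaaca
CXCL11: ctcaaagaGGGAAATTCCtgtgccat
LTB: gggtgtgcGGAAAGTCCCagccaggt
UBD: tccaggcaGGGGATTTCCaactcaac
LCN2: gcactccgGGAATGTCCCtcactctc
CXCL1, CXCL2 and CXCL3 share the same match and its right flank, and the windows of CXCL2 and CXCL3 are identical. These are neighbouring paralogs with similar transcripts, and whether their probes hybridise to each other's RNA was not tested. STEAP1 and IFI6 had no match in the window, and RELB was not matched to an entry.

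The neutrophil-attracting chemokines formed the list with the highest median. Of 8 genes on the list with CCL20, 7 were measured, 6 were at least 2-fold higher and 0 were lower, with a median log2 ratio of 3.52. All genes had a median of -0.0083, and 1.78% of them were at least 2-fold higher. CXCL2 had a signal of 5446 with TNF and 65.3 in the control, a log2 ratio of 5.08, and stood at 2.37 in the second reading. CXCL1 had 1501 with TNF and 61.5 in the control (3.52 and, in the second reading, 2.25), and CXCL3 had 2184 with TNF and 133 in the control (3.20 and 1.98). CXCL5, which acts on the same receptor, had 146 with TNF and 20.04 in the control, a ratio of 1.63, with -0.07 in the second reading. PPBP, the platelet member of the family, had 22.9 with TNF and 25.9 in the control. The gain of CXCL5 was thus seen in cells given TNF alone, as its treated signals were 28.5 with both agents and 30.4 with doxycycline. CXCL8 was also below 2-fold in the second reading, but its treated signals there were dim. They were 93.3 with both agents and 9.28 with doxycycline, and the offset pulls such a reading towards 0.

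The chemokines that attract T cells through CXCR3 were at or near background in the control. CXCL10 had a signal of 753 with TNF and 1.42 in the control, which was not above background, so that the gene was at least 14.8-fold higher. CXCL11 had 265 with TNF and 3.77 in the control, a log2 ratio of 2.65. CCL2, the monocyte attractant, was dim, with 67.8 with TNF and 2.07 in the control. That control was not above background, so CCL2 was at least 2.36-fold higher, and its second reading was at least 3.74. CXCL16, a membrane-bound chemokine, stood at -1.65, with 80.9 with TNF and 375 in the control. The list of other chemokines held 3 genes (23.1%) at least 2-fold higher and 1 (7.69%) lower of 13 measured, against 1.78% and 12% of all genes.

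Of 15 measured NF-kB subunits and IkB proteins, 3 (20%) were at least 2-fold higher and 2 (13.3%) lower, against 1.78% and 12% of all genes. The median was 0.24, and -0.02 when each gene was read at its probe nearest to 0. RELB, the subunit of the non-canonical pathway, had a signal of 386 with TNF and 51.2 in the control, with ratios of 2.13 and 2.54 in the second reading. BCL3, a nuclear IkB protein, was measured by 2 probes, which had log2 ratios of 2.12 and 0.96. CHUK, the kinase IKK alpha, stood at -1.34, and IKBKG, the scaffold NEMO, was not above background with TNF. In the second reading 6 of the 15 genes were at least 2-fold higher and 0 were lower, against 1.17% and 0.886% of all genes. CHUK and IKBKG stood at 0.11 and -0.02 there.

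Among 28 measured genes of TNF receptor signalling, 5 (17.9%) were higher and 3 (10.7%) lower, against 1.78% and 12% of all genes. The share lower was thus near that of all genes. OPTN, a ubiquitin-binding adaptor that dampens NF-kB signalling, had a signal of 294 with TNF and 47.1 in the control, with ratios of 1.89 and 1.99 in the second reading. CYLD, a deubiquitinase that restrains the pathway, stood at 1.37 and 1.24. RBCK1, a subunit of the linear ubiquitin ligase, had 2.65 with TNF, which was not above background, and 503 in the control. TNIP2, an A20-binding protein, had 12.4 with TNF and 204 in the control, a ratio of -1.75. Both stood near 0 in the second reading, at 0.02 and 0.05.

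The TNF superfamily ligands gave 2 genes (16.7%) higher and 1 (8.33%) lower of 12 measured, against 1.78% and 12% of all genes. LTB, which encodes lymphotoxin beta, had a signal of 6465 with TNF and 132 in the control, a ratio of 4.61. The controls of the other arrays had 7.11 and 30.6. The control of LTB was thus higher on the array whose other channel was bright, as was that of CCL20, and whether the other channel had a part in this was not tested. TNF itself had 105 with TNF treatment and 0.07 in the control, which was not above background, so that it was at least 3.12-fold higher. TNFSF10, the death ligand TRAIL, had 426 with TNF and 176 in the control, a ratio of 0.94, and TNFSF13, the B cell factor APRIL, stood at -1.62.

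Of 14 measured anti-apoptotic survival genes, BIRC3 alone (7.14%) was at least 2-fold higher and 3 (21.4%) were lower, against 1.78% and 12% of all genes. Their median control signal was 208, and 28.3% of all probes with a control between 200 and 500 were lower. In the second reading 1 of these genes was higher and 0 were lower, against 1.17% and 0.886% of all genes. BIRC5, the mitotic inhibitor survivin, had a signal of 122 with TNF and 1404 in the control, a ratio of -3.34, and BCL2L1, which encodes BCL-xL, had 8.04 with TNF and 269 in the control. Of 22 measured pro-apoptotic genes and death receptors, 0 were higher and 7 (31.8%) lower, against 1.78% and 12% of all genes, and their median was -0.58. The median control signal of the list was 277, and 27.2% of all probes with a control of 200 or more were lower. BAX, which opens the mitochondrial membrane, stood at -2.28, FADD, the adaptor of death receptors, at -2.21, and FAS at -1.49. The 3 probes of BAK1 ranged between -2.22 and -0.78. In the second reading the list's median was 0.24, with 1 gene higher and 0 lower, against 1.17% and 0.886% of all genes.

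The interferon and antigen presentation genes were split. UBD, the gene of FAT10, which tags proteins for the proteasome, had a signal of 1059 with TNF and 3.36 in the control, a log2 ratio of 4.28. PSMB9, an immunoproteasome subunit, had 1908 with TNF and 350 in the control, with ratios of 1.80 and 1.61. HLA-E, a non-classical MHC class I gene, had 1.89 with TNF, which was not above background, and 545 in the control. On the combined array HLA-E had 2151 in treated cells, and its second reading was 1.35. PSMB8, a second immunoproteasome subunit, had probes at -3.11 and -1.54, against a second reading of 0.80. Of 22 measured genes on the antigen presentation list, 2 (9.09%) were higher and 6 (27.3%) lower with TNF over control. Of all genes 1.78% were higher and 12% lower, and of all probes with a control of 200 or more 27.2% were lower. The list's median control signal was 234. In the second reading 7 of its genes were higher and 0 lower, against 1.17% and 0.886% of all genes.

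Of 50 measured interferon-stimulated genes, 5 (10%) were higher and 4 (8%) lower, against 1.78% and 12% of all genes. Their median was 0.33. IFI6, a mitochondrial interferon-induced protein, had a signal of 1787 with TNF and 215 in the control, a ratio of 2.36. OAS3, a sensor of double-stranded RNA, had 2701 with TNF and 410 in the control, a ratio of 2.04. IFI35 was not above background with TNF, at 4.39, and had 250 in the control. IFI30, a lysosomal thiol reductase, had 513 with TNF and 1513 in the control. RIGI, another RNA sensor, was not counted among the 50 genes, because the list held it under its older symbol DDX58. It was measured by 2 probes that gave like ratios of 1.59 and 1.31, with 1.11 in the second reading.

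Among acute-phase and antimicrobial genes, LCN2, which binds bacterial siderophores, had a signal of 2799 with TNF and 226 in the control, a ratio of 2.87. CFB, complement factor B, had 562 with TNF and 73.8 in the control, a ratio of 2.22. Both were below 2-fold in the second reading, at 0.64 and 0.62. PIGR, which carries IgA across the epithelium, had 46.3 with TNF and 859 in the control, and REG4, a secreted lectin, had 86.2 with TNF and 590 in the control. Both stood below 0 in the second reading, at -0.08 and -0.79. Of the 24 measured genes, 3 (12.5%) were higher and 4 (16.7%) lower, the second share being near the 12% of all genes.

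Further gains were in genes of other roles. STEAP1, a membrane protein of the STEAP family, had 1897 with TNF and 195 in the control, a ratio of 2.56, with 0.37 in the second reading. EREG, the EGF receptor ligand epiregulin, had 1319 with TNF and 309 in the control, a ratio of 1.51. IL32, an epithelial cytokine, had 1617 with TNF and 465 in the control, with ratios of 1.20 and 2.13. The laminin chain gene LAMB3 stood at 1.27 and 1.33, and the adhesion receptor gene ICAM2 at 1.39 and 0.91. MUC2, the gel-forming mucin of goblet cells, had 425 with TNF and 133 in the control, a ratio of 1.28, with 0.06 in the second reading. The treated signal of MUC2 was 9.60 with both agents and 19.4 with doxycycline alone. KLK10, a secreted protease, had 6576 with TNF and 1765 in the control, with ratios of 1.17 and 1.06.

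The larger gains were seen more often in the second reading than the smaller ones. The 18 genes at least 4-fold higher had a median of 2.31 in the second reading, and 13 of them (72.2%) were at least 2-fold higher there, against 1.17% of all genes. All 18 lay above 0, and the 5 below 2-fold were CXCL8, LCN2, STEAP1, CFB and OAS3. The offset pulls the readings of dim probes, such as that of CXCL8, towards 0. Of the 21 genes with a log2 ratio of 1.5 to 2, 5 (23.8%) were at least 2-fold higher in the second reading, with a median of 0.14. These 5 were OPTN, PSMB9, PLCB4, TMEM45A and BCL3, and PLCB4 and TMEM45A are named after their values were seen. Of the 226 genes with a ratio of 1 to 1.5, 12 (5.31%) were at least 2-fold higher and 4 lower, with a median of -0.06. The 2-fold threshold was passed upwards by 265 genes with TNF over control and by 175 in the second reading, and 30 were shared, which is 11.3% of the first and 17.1% of the second.

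Genes with several probes gave a check within the TNF array, although probes of 1 gene share its RNA and its array. Each of the 18 strongest gains was measured by 1 probe, so none of them has this check. Of 1794 genes with several probes, 3 (0.167%) were at least 2-fold higher at every probe. These were RIGI, MITD1, which acts in the last step of cytokinesis, with ratios of 1.56 and 1.07, and KCTD9, with ratios of 1.19 and 1.01. MITD1 stood at 0.54 and KCTD9 at -0.19 in the second reading. The next by the probe nearer to 0 were BCL3 and METTL9 at 0.96 each and FASTKD1, a mitochondrial RNA-binding protein, at 0.87. IFNGR2, a chain of the interferon gamma receptor, had its nearer probe at 0.85 and a second reading of 0.79.

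Probes of 1 gene often disagreed on this array. For the 89 probes at least 2-fold higher, 8 of 94 partner probes (8.51%) were also higher and 3 were at least 2-fold lower instead, while 2.44% of all these probes were higher. For the 529 probes at least 2-fold lower, 220 of 547 partners (40.2%) were also lower, while 14.5% of all were lower. Partners of higher probes were also higher in 68 of 119 cases (57.1%) with both agents and in 12 of 43 (27.9%) with doxycycline alone. Among 405 genes whose probes all had a bright control signal, of 200 or more, 0 of 14 partners of higher TNF probes were also higher and 144 of 266 partners (54.1%) of lower ones were also lower. Of all probes of these genes 1.72% were higher and 32.3% lower, so that 14 partners are too few to read a share of gains from. The spread of probes within such genes had an SD of 1.08 (log2 scale) with TNF, 0.285 with both agents and 0.269 with doxycycline alone.

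**Figure D2:**
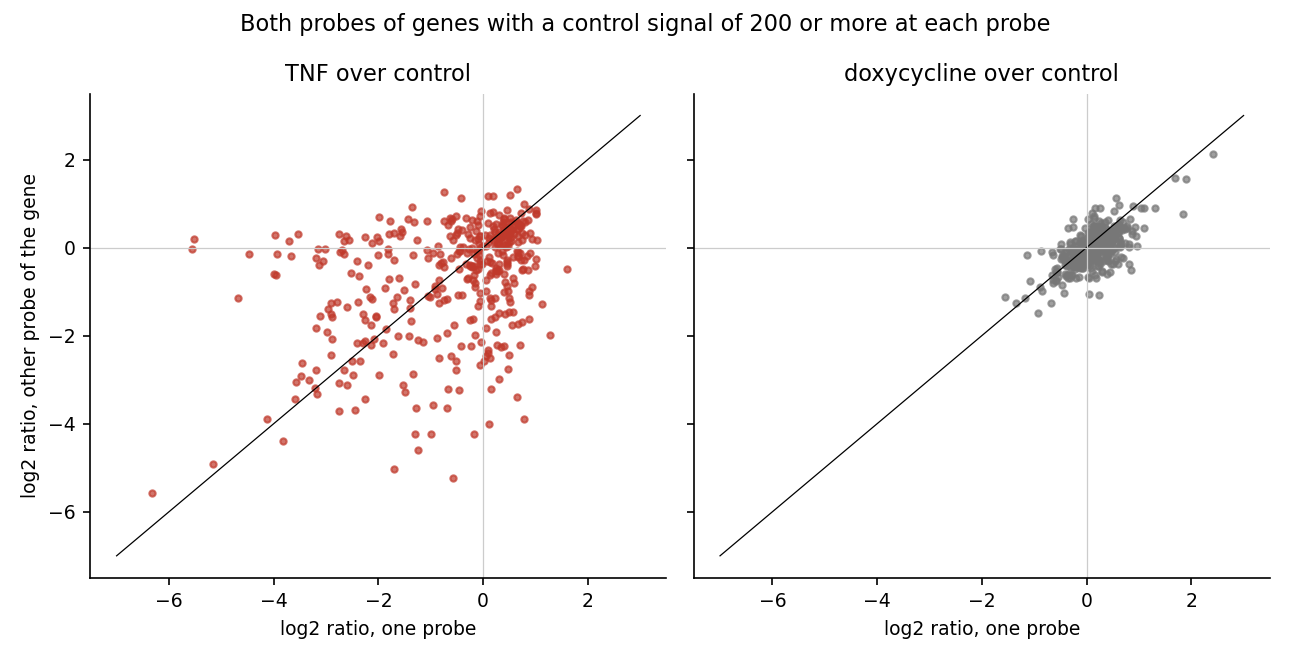
log2 ratio of one probe against the other probe of the same gene, for the 402 genes with 2 probes that each had a control signal of 200 or more; left, TNF over control, right, doxycycline over control on its own array, with a line where both probes are equal. On the TNF array many genes have one probe near 0 and the other far below it, and the SD within genes is 1.08 there and 0.269 on the doxycycline array.

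Losses were many and large. The TNF array had 1787 genes (12%) at least 2-fold lower and 265 higher. Median centring instead of loess gave 1800 lower and 765 higher, and in the authors' deposited log2 values they were 3059 lower and 1937 higher. Of the 1787 genes, 1552 were measured by 1 probe and 169 were not above background with TNF. The control signal had a median of 388 for the lower genes, 132 for the higher genes and 84.8 for all genes. Because of the offset the largest loss that can be read shrinks with the control signal, and the lower edge of the plot of ratio against control signal follows from this.

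**Figure D3:**
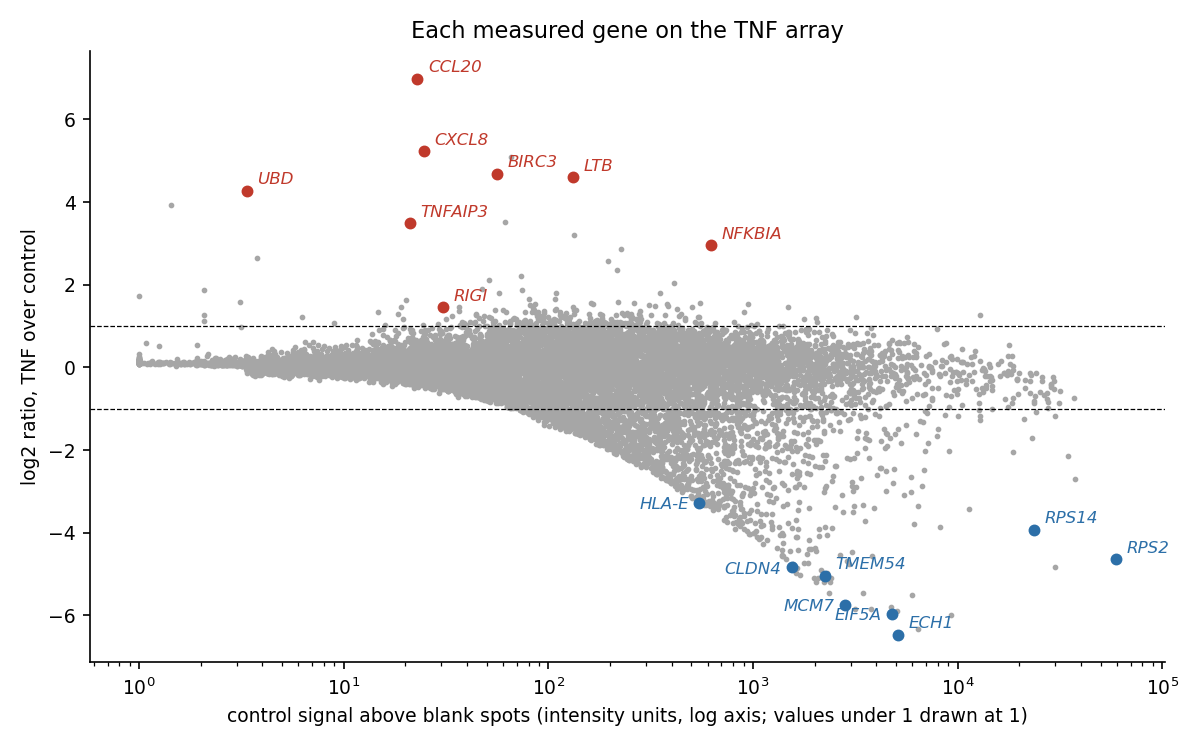
log2 ratio of TNF over control for each of the 14898 genes against its control signal (log axis, intensity units); dashed lines mark 2-fold, red points are some of the named gains and blue points some of the named losses. The gains above 4-fold stand apart as single genes, from CCL20 at 6.99 downwards, while losses form a cloud that deepens with the control signal down to ECH1 at -6.47.

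The treated channel of the TNF array carried the difference from the other arrays. The control channel of the TNF array differed from that of the doxycycline array with an SD of 0.104 on the log2 scale, and 5 of 19926 probes differed at least 2-fold. The treated channels of the same arrays differed with an SD of 0.854, and 2942 probes did so. The median signal over all probes was 18.6 with TNF and 35.6 in its control, against 55.7 in treated cells and 30.7 in the control on the doxycycline array. Of 6223 probes with a control signal of 200 or more, 1695 (27.2%) were at least 2-fold lower with TNF, against 327 (5.25%) with both agents and 67 (1.08%) with doxycycline alone. Probes at least 4-fold lower numbered 851, or 13.7%, and their share ranged between 9.36% and 17.8% over the 24 print blocks of the array. By the start of the probe's name, which the submitters' files give, the share was 12.3% of 4245 probes named H, 19.5% of 722 named opHsV and 18.1% of 419 named CHsGV. The part of the TNF channel's lower median signal over all probes in the losses was not tested.

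**Figure D4:**
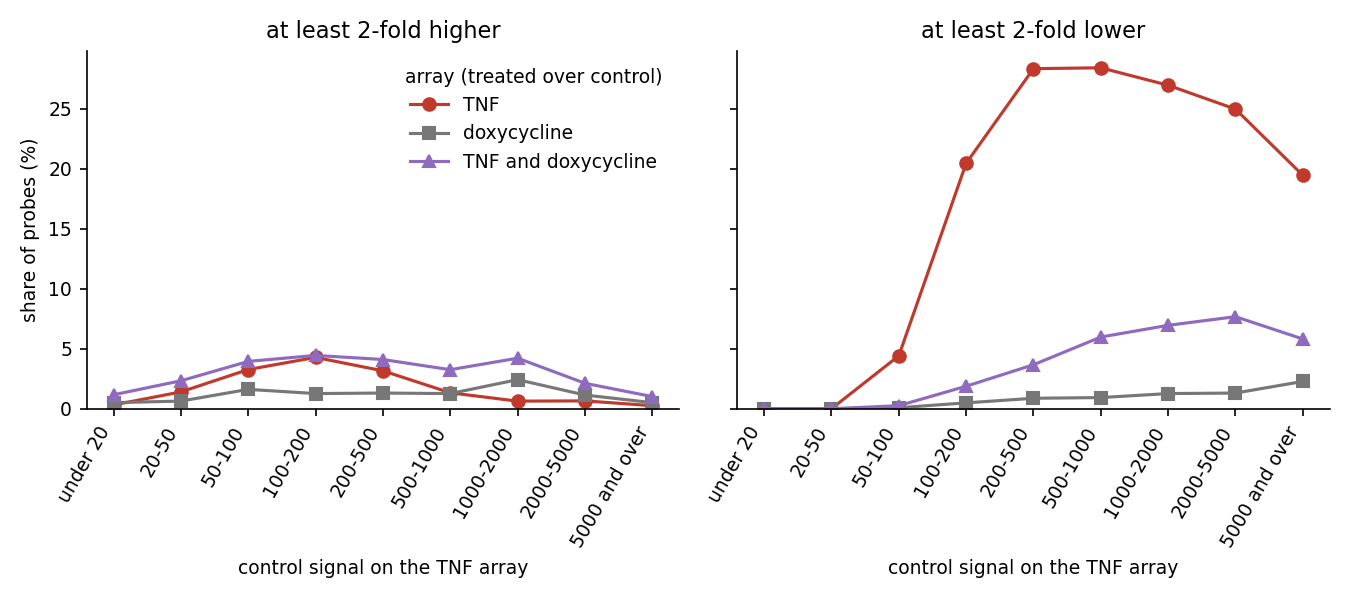
Share of probes (%) at least 2-fold higher (left) and at least 2-fold lower (right) on each array, treated over control, by the control signal on the TNF array in 9 bins of intensity units. On the TNF array the share lower reaches 28.3% between 200 and 500 and 28.4% between 500 and 1000, above both other arrays, while the share higher stays under 5% in each bin of every array.

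The losses of genes with several probes are the ones with the most measurements behind them. In 104 genes (5.8% of 1794) every probe was at least 2-fold lower. EIF5A, a translation factor, had a signal of 35.8 with TNF and 5450 in the control at one probe, and 60.5 with TNF and 4121 in the control at the other. Its log2 ratios were -6.33 and -5.58. On the other arrays the mean EIF5A signal of treated cells was 7127 with doxycycline and 7749 with both agents, so the low level was seen only in the culture given TNF alone. TMEM54, a membrane protein, had 30.2 with TNF and 2491 in the control at one probe and 24.9 with TNF and 2013 in the control at the other, and its second reading was -0.50.

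Other genes were also low at both probes. CHD4, a chromatin remodeller, had mean signals of 9.12 with TNF and 1047 in the control, and CSE1L, an exporter of importin alpha, had 12.1 with TNF and 1013 in the control, with 1 of its 2 probes not above background with TNF. STX10, a SNARE of the Golgi, had 42.0 with TNF and 958 in the control. TRMU, a mitochondrial tRNA-modifying enzyme, was not above background with TNF at either probe, with a control of 523. SMARCD2, PLP2, WDR46, MRPS18A, DGAT1 and DAP had log2 ratios between -3.31 and -2.99. In the second reading the 12 named genes lay between -0.60 and 0.51. Over all 104 genes the median of the second reading was 0.02, with 1 gene at least 2-fold higher and 0 lower, against 1.17% and 0.886% of all genes.

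Losses of any size were near 0 in the second reading. The 206 genes with a log2 ratio of -3 or lower had a median of 0.06 there. Of them 5 (2.43%) were at least 2-fold lower, against 0.886% of all genes. The 719 genes with a ratio between -1.5 and -1 had a median of 0.06, and 9 were lower. Of the 1787 lower genes, 22 (1.23%) were also at least 2-fold lower in the second reading, which is 16.7% of the 132 genes lower there. The largest losses of genes with 1 probe were ECH1, an enzyme of fatty acid oxidation, with a signal of 20.7 with TNF and 5122 in the control, and DPEP1, a brush border dipeptidase, with 53.9 with TNF and 6372 in the control. FBL, the nucleolar methyltransferase fibrillarin, GPX4, which detoxifies lipid peroxides, CCT3, a chaperonin subunit, and MDH2, a citric acid cycle enzyme, had log2 ratios between -5.99 and -5.85. Of these 6 genes, DPEP1 had the lowest second reading, at -0.49.

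Housekeeping lists held some of the largest losses. Of 59 measured cytosolic ribosomal protein genes 8 (13.6%) were lower and 0 higher, a share near the 12% of all genes. Their median was -0.34, which became 0.26 with median centring and 0.37 in the authors' deposited values. RPS2 had a signal of 4169 with TNF and 59505 in the control, a ratio of -4.65, and RPS14 had 2596 with TNF and 23575 in the control. RPL3 showed both outcomes, with 1535 with TNF and 14719 in the control at one probe (-3.94) and 37423 with TNF and 22577 in the control at the other (-0.15). Of 31 constitutive proteasome subunits 7 (22.6%) were lower and 1 higher. Among all probes with a control of 200 or more, 27.2% were lower. PSMC3 and PSMD3, both of the regulatory particle, stood at -5.20 and -5.19, and PSMA7, a subunit of the core, at 1.21. Of 18 glycolysis enzymes 4 (22.2%) were lower, and the PKM probes had ratios of -2.66 and -0.15. The medians of the proteasome and glycolysis lists, -0.06 and -0.17, also changed sign with median centring, to 0.61 and 0.53, and in the authors' deposited values, to 0.73 and 0.65.

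Genes of cell junctions were the list with the lowest median in this setting. Of 28 measured tight junction and epithelial adhesion genes, 14 (50%) were lower and 4 (14.3%) higher, against 12% and 1.78% of all genes. The median control signal of the list was 345, and 28.3% of all probes with a control between 200 and 500 were lower. The list's median ratio of -0.73 stayed below 0 in each of the 12 other settings, between -0.98 and -0.15. CLDN4, a claudin of the tight junction, had a signal of 4.76 with TNF and 1551 in the control, a ratio of -4.84. CLDN7 had 89.3 with TNF and 2949 in the control. CLDN12 had 1323 with TNF and 372 in the control, a ratio of 1.26, and CTNND1, the catenin p120, had 1122 with TNF and 318 in the control. The second reading of the list had a median of 0.03, with 3 genes higher and 1 lower, against 1.17% and 0.886% of all genes. CLDN4 stood at 0.30 there and CLDN12 at -0.06.

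Of the 11 measured colon epithelial markers 5 (45.5%) were lower and 0 higher, and their median control signal was 1389. Among all probes with a control between 1000 and 2000, 26.9% were lower, and among all genes 12%. CDX1, an intestinal transcription factor, had a signal of 76.5 with TNF and 1555 in the control, a ratio of -3.88, and CDX2 had 14.6 with TNF and 425 in the control. GPA33 stood at -1.96, CDH1 at -1.75 and KRT19 at -1.45, while CDH17 stood at 0.50 and the probes of EPCAM at 0.31 and -0.38. In the second reading none of the 11 genes was at least 2-fold lower, against 0.886% of all genes. Among stem cell and Wnt target genes, 7 of 22 (31.8%) were lower, with CCND1, cyclin D1, at 2744 with TNF and 6933 in the control. The median control signal of that list was 280, and 28.3% of all probes with a control between 200 and 500 were lower. Of 36 Notch pathway genes 6 (16.7%) were lower and 0 higher, a share near the 12% of all genes, with HES6 at 16.8 with TNF and 683 in the control.

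Proliferation genes had losses in both readings, but mostly of different genes. Of 49 measured genes 15 (30.6%) were lower with TNF over control and 23 in the second reading, against 12% and 0.886% of all genes. Of the 49 genes 4 were lower in both, and 0 were higher in either. The median control signal of the list was 775. On the TNF array 28.4% of all probes with a control between 500 and 1000 were lower, which is near the list's share. MCM7, a subunit of the replicative helicase, had a signal of 7.73 with TNF and 2808 in the control, a ratio of -5.74, and a second reading of -0.33. CDC20, an activator of the anaphase-promoting complex, had 34.7 with TNF and 2299 in the control, with -0.86 in the second reading. BUB1, a spindle checkpoint kinase, stood at -2.74 and -0.55. The median of the list was -0.29 with TNF over control, -0.06 with median centring and 0.08 in the authors' deposited values, against -0.98 in the second reading. The ATF4 stress response list had 9 of 27 genes (33.3%) lower, led by the amino acid transporter subunits SLC3A2 at -3.01 and SLC7A5 at -2.98. Its median control signal was 564, in the same range where 28.4% of all probes were lower. SLC7A5 was also lower in the second reading, at -1.10.

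NF-kB and TNF target genes made up 16 of the 30 genes that were higher in both readings, and 60 of the 14898 measured genes. Of these 60 genes, 24 (40%) were higher and 3 (5%) lower with TNF over control, against 1.78% and 12% of all genes. The second reading had 20 of them higher and 0 lower, against 1.17% and 0.886% of all genes. KLF6, a zinc finger factor, was the lowest of the list, not above background with TNF at 4.26 and with 456 in the control. The median of the list was 0.44 and, in the second reading, 0.53, against -0.0083 and -0.0022 for all genes. The list includes the 5 marker genes, so its counts are not independent of them. It was also chosen with earlier results of these data known.

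**Figure D5:**
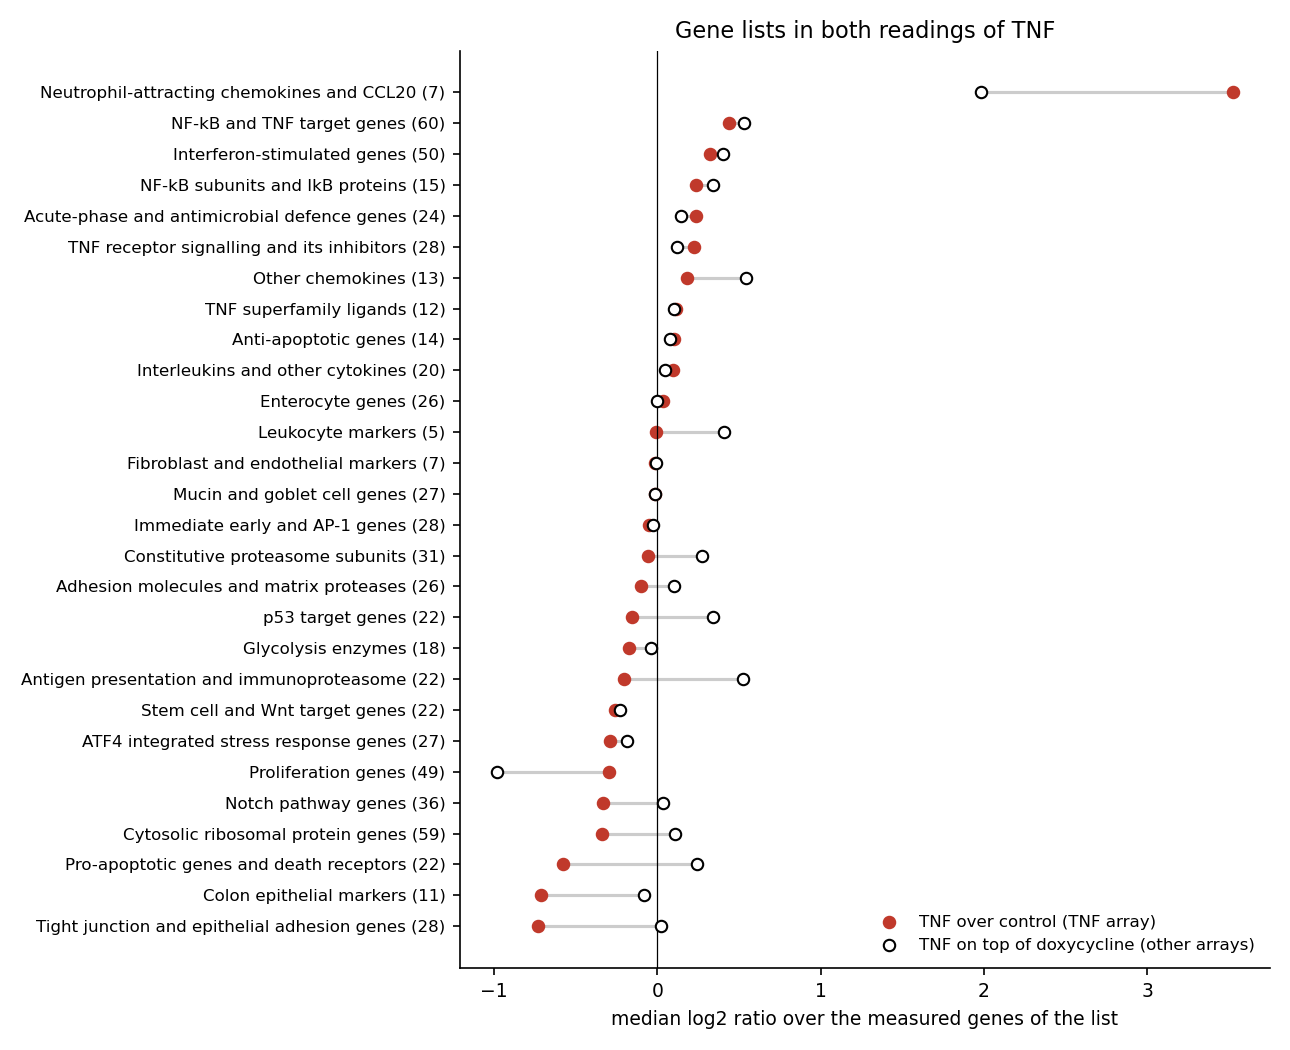
Median log2 ratio over the measured genes of each of the 28 gene lists (number of genes in brackets); red points are TNF over control on the TNF array and open points are TNF on top of doxycycline on the other arrays. The chemokine list stands at 3.52 and 1.98, the NF-kB target list at 0.44 and 0.53, and the junction list at -0.73 and 0.03.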

How the data were processed

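Amplified RNA was made and coupled to the dyes by amino allyl labelling, per the labels' protocols. The scanner files that the authors deposited hold the median intensity of 27456 spots per array at 635 nm (Cy5) and 532 nm (Cy3), which combine scans at 3 gains, per the file headers. The log2 ratios that the authors deposited were matched within 0.001 by Cy3 over Cy5, each less the trimmed mean of the blanks and centred on the array's median, which fixes the direction as treated over control; all 18330 values of the TNF array matched.

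Each channel less the 5%-trimmed mean of 2680 blanks was corrected with normexp (offset 50) and normalised by loess within the array (limma 3.58.1, R 4.3.3), control spots having weight 0. Probes above the 95th percentile of the blanks in at least 1 channel of the TNF array were kept (19926), 3 marked as bad were dropped, and probes of 1 gene were averaged. Of 24460 probes 20236 had 1 symbol and 4224 none; 2899 symbols were updated. On the arrays the TNF channel had 17869 probes above background and its control 19427, and precision is limited by the number of arrays. Ratios with a channel not above background are limits. Promoters came from RefSeq (GRCh38.p14). The procedure was tested on simulated data made from the control channels of the TNF and doxycycline arrays. These do not hold the many low bright probes of the TNF channel, so that feature was not covered. Python 3.11.15, numpy 2.4.6, pandas 2.3.3 and matplotlib 3.10.9 were used.

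The markers, lists and comparisons were chosen with earlier results of these data known. Named genes were the 5 markers, the 15 highest, the 12 lowest and 10 highest genes with several probes, the 6 lowest with 1 probe, and up to 4 members per list (all of a list with 12 or fewer), with the exceptions PLCB4, TMEM45A, CYLD, CCL2 and OLFM4, chosen after their values were seen, and markers without a value above background. No test was made, since each condition had 1 array, and 12 other settings were tried.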

Additional observations from a re-analysis of the deposited data

Results flagged for a closer look

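With TNF over control, 6 genes were at least 2-fold higher that were at least 2-fold lower in the second reading, and 27 were lower that were higher there. The difference between the readings was not tested. The genes among them that belong to the named ones follow. EREG stood at 1.51 with TNF over control and at -1.26 in the second reading. HLA-E, IER5 and JAG1 were lower with TNF alone. HLA-E stood at -3.28 and 1.35, with its spot not above background in the TNF channel. IER5, an immediate early gene, stood at -1.77 and 1.21, with a signal of 5.85 with TNF and 182 in the control. JAG1, a Notch ligand, stood at -1.69 and 1.30, with 47.8 with TNF and 301 in the control. Each of these genes was measured by 1 probe.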

How the results depend on the processing

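No paired analysis was possible because there was 1 sample in each group. Counts of genes moved with the setting. Of genes at least 2-fold higher, 265 became 1937 in the authors' deposited log2 values, 765 with median centring and 435 with offset 16, and of genes lower, 1787 became 3059 in the authors' values and 1180 with the local background. Genes higher at every probe, 3, became 64 in the authors' values, 24 with median centring, 9 with offset 16, 6 without background subtraction and 6 against the mean of the 3 controls, and genes lower at every probe, 104, became 52 with the local background. In the second reading, 175 higher genes became 567 in the authors' values and 263 with offset 16, and 132 lower genes became 496 and 218. The NF-kB list's median of 0.44 became 1.05 in the authors' values, 0.66 with median centring and 0.54 with the local background. In the authors' values, which use no offset, CCL20 stood at 9.32, CXCL8 at 7.28, BIRC3 at 6.10, TNFAIP3 at 5.30 and NFKBIA at 3.80. With offset 16 CCL20 stood at 7.81, CXCL8 at 5.99 and TNFAIP3 at 4.26, and with the local background CCL20 stood at 6.11 and CXCL8 at 4.29. The cause was not tested. The 18 strongest gains were at least 2-fold higher in all 212 values under these alternatives and at least 4-fold in 208, the exceptions being CFB (1.87), CXCL11 (1.29), OAS3 (1.95) and RELB (1.66) with the local background. With the offset, the size of a loss that can be read shrinks with the control signal, which limits the dim genes.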
